A study of Mus musculus with 18 samples.

Results

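The 18 whole-brain arrays of an estrogen receptor knockout series fell into 2 classes by their signal for Pcp2, a gene whose transcript is confined in brain almost wholly to cerebellar Purkinje cells. The Pcp2 probe set with the highest mean over all arrays was taken, and arrays at a deposited signal of 500 or more were classed as cerebellum-rich and those under 500 as cerebellum-poor. The members were thus chosen by measured Pcp2 signal on the same arrays. By this rule 11 of the 18 arrays were cerebellum-rich and 7 were cerebellum-poor. The brains came from C57BL/6 mice aged 8 weeks, labelled ERalphaKO (knockout of estrogen receptor alpha), ERbetaKO (knockout of estrogen receptor beta) or wild type, with 3 female and 3 male samples of each on Affymetrix mouse expression arrays. The knockouts were on the same C57BL/6 background, and the wild type mice carried no allele or treatment that the labels name. Samples are numbered within groups, and nothing states whether each is a separate animal, so standard errors describe only the spread between these samples.

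The cerebellar cortex is built from a few cell types in a fixed circuit. Granule cells, the most numerous neurons of the brain, receive mossy fibre input and send parallel fibres onto the dendrites of Purkinje cells, whose inhibitory axons are the only output of the cortex. Cerebellins secreted by granule cells bridge presynaptic neurexins and the delta glutamate receptor of Purkinje cells, Golgi and basket or stellate interneurons provide local inhibition, and Bergmann glia wrap the Purkinje cell synapses. Marker genes of other brain regions, of the olfactory bulbs and of the pituitary gland are given as well.

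Pcp2 (Purkinje cell protein 2, a regulator of G protein signalling on chromosome 8) chose the classes, so its values are a description only. Its signal was 1306.0, 5559.6 and 10790.3 on the cerebellum-rich arrays (lowest, median, highest), against 117, 225 and 299 on the cerebellum-poor arrays. The arrays nearest the threshold from above were ERbetaKO male 3 at 1306.0, ERbetaKO male 2 at 1525 and wild type male 1 at 2104, and those nearest from below were ERbetaKO female 2 at 299 and ERbetaKO female 3 at 256. No array lay between 299 and 1306.0, and a threshold of 1000 gave the same classes. The cerebellum-poor arrays were ERalphaKO female 2 and male 3, ERbetaKO female 2, female 3 and male 1, and wild type female 3 and male 3. Among the cerebellum-rich arrays the signal spanned a wide range, with wild type male 2 highest.

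The upstream sequences of Pcp2 and of 2 of the 12 leading higher genes, Fat2 and Arhgef33, are shown because all 3 hold the letters AGGTCA or their reverse complement TGACCT, the half-site bound by nuclear receptors such as RORA, a factor of Purkinje cells. Each runs 5′ to 3′ on the gene's strand, 250 bases before to 50 after the annotated start, from RefSeq on GRCm38.p6, at chr8:3625498-3625797 (minus strand) for Pcp2, chr11:55312208-55312507 (minus strand) for Fat2 and chr17:80307157-80307456 (plus strand) for Arhgef33. Capitals mark the half-site on either strand and, in Pcp2, the E-box variant CAGATG, whose reverse complement CATCTG was searched too.
Pcp2: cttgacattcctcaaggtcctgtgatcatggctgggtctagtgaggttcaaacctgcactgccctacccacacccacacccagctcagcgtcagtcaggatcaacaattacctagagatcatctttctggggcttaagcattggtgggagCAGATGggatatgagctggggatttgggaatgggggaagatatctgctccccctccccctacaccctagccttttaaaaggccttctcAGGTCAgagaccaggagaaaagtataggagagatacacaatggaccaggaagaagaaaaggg
Fat2: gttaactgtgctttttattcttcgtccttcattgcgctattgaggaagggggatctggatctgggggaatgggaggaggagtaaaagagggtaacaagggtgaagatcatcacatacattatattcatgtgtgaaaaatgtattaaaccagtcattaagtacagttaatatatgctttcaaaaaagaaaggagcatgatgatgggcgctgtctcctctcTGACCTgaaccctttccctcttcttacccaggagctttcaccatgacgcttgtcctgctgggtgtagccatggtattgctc
Arhgef33: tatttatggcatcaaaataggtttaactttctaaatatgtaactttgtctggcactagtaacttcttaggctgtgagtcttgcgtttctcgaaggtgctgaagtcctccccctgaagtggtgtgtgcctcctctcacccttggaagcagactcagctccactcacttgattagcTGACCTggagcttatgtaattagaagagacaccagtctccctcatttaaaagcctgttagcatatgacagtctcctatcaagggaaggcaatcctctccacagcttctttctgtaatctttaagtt
The half-site lay at -12 in Pcp2, -31 in Fat2 and -76 in Arhgef33, counted in bases from the annotated start. A half-site was present in 16.0% of 27025 promoters of this length and in 12.4% of the 10531 tested genes with a promoter in the table. It was present in 2 of the 8 matched promoters among the 12 leading higher genes, and in 0 of 8 among the 12 leading lower genes. The E-box variant was present in 17.2% of all promoters, in 11.8% of the tested genes, in 1 of the 8 leading higher genes and in 1 of the 8 leading lower genes. These matches describe letters in a window and say nothing about binding.

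No association of the class with genotype or sex was detected. Cerebellum-rich arrays were 4 of 6 labelled ERalphaKO, 3 of 6 labelled ERbetaKO and 4 of 6 wild type (Fisher's exact test, two-sided, p = 1), and 5 of 9 female and 6 of 9 male arrays (Fisher's exact test, two-sided, p = 1). Each of the 6 groups of 3 arrays held both classes. Esr2, the gene targeted in ERbetaKO, had a signal of 160 to 407 on arrays labelled ERbetaKO, 18.2 to 78.2 on arrays labelled ERalphaKO and 19.8 to 50.8 on wild type arrays, which runs against the label. Esr1, targeted in ERalphaKO, had in its brightest probe set 86.8 to 145 on arrays labelled ERalphaKO, 171 to 231 on arrays labelled ERbetaKO and 93.3 to 185 on wild type arrays, so that ERalphaKO overlapped wild type. Its other probe sets were not lower in ERalphaKO, at 178 to 318 against 69.9 to 205 on wild type arrays and at 41.5 to 86.8 against 10.2 to 55.5. Whether any of these probe sets lies in the deleted part is not given in the sources used here, and genotype entered below only as a covariate. The Actb 3′ over 5′ control ratio, a sign of RNA integrity, was 1.17 to 1.47 on rich arrays and 1.15 to 1.84 on poor arrays. The first principal component carried 24.4% of the variance of the tested genes. Its scores were -15.5 to 23.9 on rich arrays and -21.9 to -6.01 on poor arrays, with ERbetaKO male 2 and male 3 the only rich arrays inside the range of the poor ones.

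Other tissues also varied between arrays. Growth hormone (Gh), the main product of pituitary somatotrophs, was above 1000 on 5 rich arrays and 1 poor array and at or below 171 on all others. Transthyretin (Ttr), the leading transcript of the choroid plexus, was under 5000 on 2 poor arrays, at 837 on wild type male 3 and 2971 on ERalphaKO male 3, and at least 11309.9 on the other arrays. ERalphaKO male 3 also had the highest signal for the olfactory bulb gene Cdhr1 (2503), and wild type male 3 was the one poor array with high Gh (5917). Values without those arrays are given below for several lists, and counts with Gh as a covariate are given with the other alternatives.

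Across the 13055 genes tested, with genotype as a covariate and Pcp2 left out, 991 (7.59%) were called between the classes by limma (Benjamini-Hochberg adjusted p under 0.05), 468 (3.58%) higher and 523 (4.01%) lower in cerebellum-rich arrays. Because the classes were cut from Pcp2 on these same arrays, the calls describe which genes went with Pcp2 and are no independent evidence. With each array scaled to a common median instead, 292 were higher and 574 lower, 33.7% of calls higher against 47.2%. Differences are cerebellum-rich minus cerebellum-poor on the log2(signal + 63.6) scale with their standard error (SE), so a difference of 1 is a doubling for a bright gene and weak genes are understated. In bulk tissue, fewer cells of a type, less RNA per cell and a larger share of other tissue cannot be told apart. Each array has the same trimmed mean, so signals are relative to the rest of the array. The differences were lopsided in size: 47 called genes (0.36%) were higher by at least 1, and 4 (0.0306%), namely Dlx1, Gpr6, Cdhr1 and Rxrg, were lower by as much. The filter on low signal used the mean over all 18 arrays, 11 of them rich. A gene with signal only on rich arrays thus passed more easily than one with signal only on poor arrays. How far this shaped the 47 against 4 was not tested. The largest was 4.73 upward and -1.20 downward. On 38 genes (0.291%) every rich array lay above every poor array, and on 26 (0.199%) every rich array lay below. An interaction of class and genotype was called for 0 genes (limma, 872 of the 13055, or 6.68%, at an unadjusted p under 0.05).

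Purkinje cell genes were higher in cerebellum-rich arrays. Of 30 listed genes, Pcp2 was set aside, 3 lay below the filter on low signal and 6 had no probe set of a single symbol. Among the 20 tested, 15 were called higher and 1 lower, against 3.58% and 4.01% of all genes tested. The median difference was 0.77 against -0.00119 over all tested genes. For 7 of the 20 every rich array lay above every poor one, against 0.291% of all genes tested. Car8, a carbonic anhydrase-related protein that binds the inositol trisphosphate receptor of Purkinje cells, had a signal of 1693, 6724 and 11416 on the cerebellum-rich arrays, against 356, 389.6 and 524 on the cerebellum-poor arrays (here and below lowest, median and highest). Every rich array lay above every poor one, and the difference was 3.40 ± 0.32. Ppp1r17, a protein phosphatase inhibitor also called G-substrate, had 178, 892 and 1922 on the cerebellum-rich arrays, against 36.4, 64.5 and 141 on the cerebellum-poor arrays, a difference of 2.51 ± 0.37 with no overlap. Lhx1, a LIM homeodomain factor of Purkinje cells, stood at 48.6, 415 and 679 on the cerebellum-rich arrays, against 4.58, 9.61 and 43.4 on the cerebellum-poor arrays, and differed by 2.09 ± 0.28. Because the poor values of Lhx1 lay under the pseudocount, its difference was 4.35 with a pseudocount of 1 and 1.20 with a pseudocount at the median signal.

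The Purkinje glutamate transporter Slc1a6 differed by 1.57 ± 0.28, the synaptic scaffold Homer3 by 1.35 ± 0.21 and the potassium channel subunit Kcng4 by 1.22 ± 0.19, each without overlap. Pvalb (parvalbumin, a calcium buffer of Purkinje cells and of fast-spiking interneurons) was at 2918, 4876 and 9300.2 on the cerebellum-rich arrays, against 1343, 1749 and 2163 on the cerebellum-poor arrays, a non-overlapping difference of 1.41 ± 0.21. Smaller differences with overlapping classes were called for Rgs8 (1.00), Inpp5a (0.93), Ebf1 (0.86), Plcb4 (0.60), Rora (0.54) and Cacna1g (0.39). Calbindin (Calb1), the classical Purkinje marker that many forebrain neurons also make, had 4849, 7432 and 11928 on the cerebellum-rich arrays, against 3938, 4819 and 5684 on the cerebellum-poor arrays. Its difference of 0.55 ± 0.16 was called with all arrays but lost the call on leaving out any 1 of 11 of the 18 arrays (differences 0.44 to 0.63 over all 18), as did the G protein subunit Gng13 (0.66 ± 0.19) for 13 of the 18 arrays (differences 0.55 to 0.74 over all 18). The single lower call was Foxp2 (-0.38), a transcription factor of Purkinje cells that striatal and deep cortical neurons express as well. Dner, Plcb3, Casq2 and Pcp4 were not called, with differences of 0.31, 0.68, 0.67 and -0.05.

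Granule cell genes included the largest difference at the pseudocount used, that of Cbln3. Of 25 listed genes, 2 lay below the filter, 1 had no probe set of a single symbol and 22 were tested. Of these, 15 were called higher (3.58% over all genes tested), 0 lower (4.01%), and the median difference was 0.86. Cbln3, a cerebellin of granule cells, had a signal of 819, 5003 and 9852 on the cerebellum-rich arrays, against 35.2, 60.6 and 139.8 on the cerebellum-poor arrays, and differed by 4.73 ± 0.42. Gabra6, the GABA-A receptor alpha6 subunit that marks mature granule cells, had 671, 4179 and 7948 on the cerebellum-rich arrays, against 38.7, 120.0 and 162 on the cerebellum-poor arrays, and differed by 4.02 ± 0.42. On all 7 poor arrays both genes lay below 195.9, the median signal of all probe sets, while no rich array was below 671 for either. Cerebellin 1 (Cbln1), the synaptic organiser of the parallel fibre synapse, was measurable in both classes, at 1305, 4730.0 and 9658 on the cerebellum-rich arrays, against 410.1, 664 and 907 on the cerebellum-poor arrays, with a difference of 2.37 ± 0.30 and no overlap.

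Fat2, a large protocadherin of parallel fibres, stood at 144, 1000.1 and 2182 on the cerebellum-rich arrays, against 17.5, 20.01 and 35.6 on the cerebellum-poor arrays, and differed by 3.31 ± 0.38 (5.03 with a pseudocount of 1, 2.23 with a pseudocount at the median). Neurod1, a proneural transcription factor kept on in granule cells, had 781, 3067 and 5758 on the cerebellum-rich arrays, against 319, 586 and 749 on the cerebellum-poor arrays, a difference of 2.03 ± 0.31 without overlap. The poor arrays still held clear Neurod1 signal, a gene also active in the forebrain. Other patterning and transcription factors of the granule lineage were called higher with overlapping classes: Mab21l1 (1.88), En2 (1.65), Zic1 (1.60), Zic5 (1.08), Pax6 (0.74), Zic2 (0.69) and Zic4 (0.32). The Rac GTPase-activating protein Chn2 (1.25) was called higher as well. On leaving out single arrays the call was lost for Zic2 with 11 of the 18 arrays (differences 0.56 to 0.82 over all 18), for Zic4 with 9 of the 18 arrays (differences 0.26 to 0.34 over all 18) and for Chn2 without wild type female 3 (1.13). Not called were Calb2 (0.83 ± 0.27), Cdh15 (0.39), Cadps2 (0.33), Reln (0.27), Tiam1 (0.12), Gabrd (0.08) and Pde1c (-0.21).

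**Figure D1:**
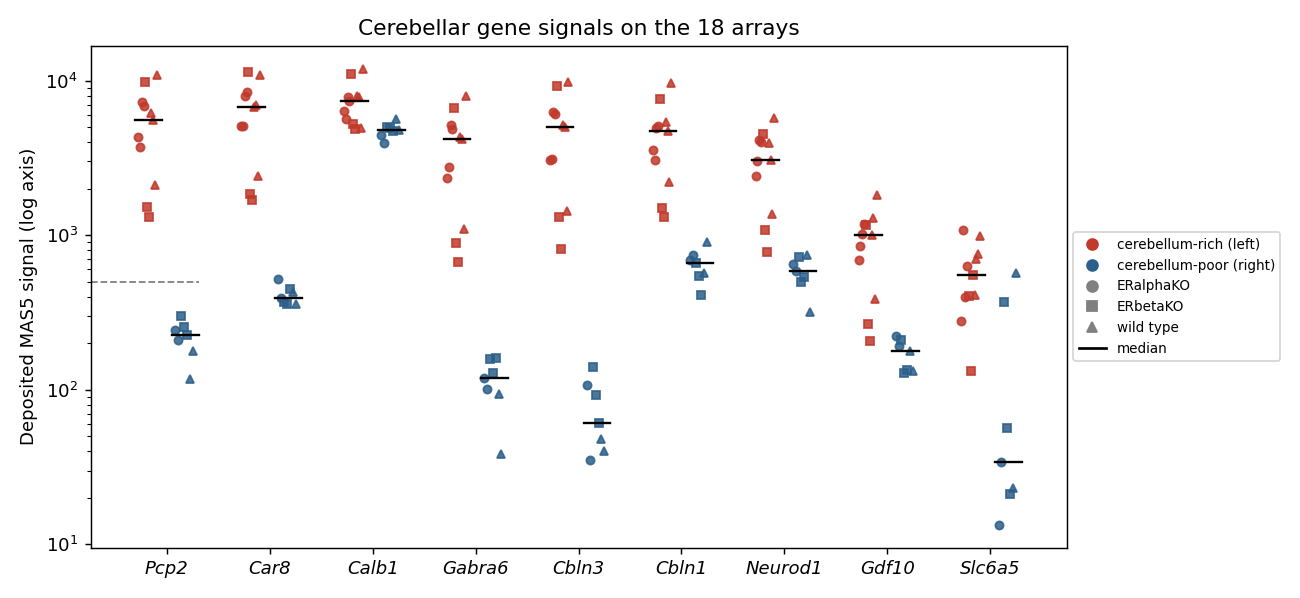
Deposited signal (log axis) of Pcp2 and 8 cerebellar genes on the 18 arrays, cerebellum-rich in red on the left and cerebellum-poor in blue on the right of each gene, with a bar at the median and a dashed line at the Pcp2 threshold of 500. The classes are apart for Car8, Gabra6, Cbln3, Cbln1 and Neurod1 and overlap for Calb1, Gdf10 and Slc6a5.

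The signal within the rich class was graded in the same arrays for different cell types. On ERbetaKO male 3, the rich array lowest for Pcp2, Gabra6 was 671, and on wild type male 2, the highest, it was 7948. The mean log2 level of the tested Purkinje genes was 9.84 to 11.38 on rich arrays and 9.47 to 9.62 on poor arrays. For the granule genes it was 9.48 to 11.33 on rich arrays and 8.92 to 9.15 on poor arrays. Neither range overlapped between the classes, and the poor arrays were much closer to each other than the rich arrays were.

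Among the cerebellins and their partners, Cbln3 and Cbln1 were the 2 called genes of 7 tested (7.59% over all genes). The list median was -0.04. Cbln4 differed by -0.14 ± 0.12, Cbln2 by -0.31 ± 0.10, and the presynaptic receptors Nrxn2 and Nrxn3 by 0.04 ± 0.10 and -0.04 ± 0.12, and none of these was called.

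Bergmann glia genes were higher on 7 of the 10 tested (3.58% over all genes tested), with 0 called lower and a median of 0.49. Gdf10, a growth factor of the transforming growth factor beta family made by Bergmann glia, had 208, 1004 and 1810.3 on the cerebellum-rich arrays, against 129, 179 and 224 on the cerebellum-poor arrays. The rich arrays were higher by 1.73 ± 0.29, with ERbetaKO male 3 just inside the poor range. The protease inhibitor A2m (0.99), the metalloproteinase inhibitor Timp4 (0.76), Septin4 (0.53), the hedgehog receptor Ptch1 (0.47) and Hopx (0.44) were called higher with overlap. The AMPA receptor subunit Gria4 (0.52 ± 0.15) was called with all arrays and lost the call on leaving out any 1 of 14 of the 18 arrays (differences 0.41 to 0.60 over all 18). Slc1a3, the glutamate transporter of Bergmann glia and of astrocytes elsewhere, was not called (0.16 ± 0.12), nor were Gli1 (0.29) and Fabp7 (-0.29).

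Inhibitory interneuron and unipolar brush cell genes were mixed, with 3 of 10 higher, 1 lower and a median of 0.17. The shares over all genes tested were 3.58% higher and 4.01% lower. Slc6a5, the glycine transporter GlyT2 of Golgi cells and of brainstem glycinergic neurons, had 133, 552 and 1074 on the cerebellum-rich arrays, against 13.4, 34.2 and 572 on the cerebellum-poor arrays. It differed by 1.87 ± 0.40; the poor arrays wild type male 3 (572) and ERbetaKO female 2 (367) lay among the rich ones, while the other 5 lay at or below 56.9. The transcription factor Tfap2b (1.07) and the receptor tyrosine kinase Kit of basket and stellate cells (0.67) were called higher, and the sorting receptor Sorcs3 (-0.36) lower.

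Of the 12 leading higher genes, 4 were on no list. Cnpy1, a canopy protein known from zebrafish as a modulator of fibroblast growth factor signalling at the midbrain-hindbrain boundary, had 48.9, 599 and 1304 on the cerebellum-rich arrays, against 0.544, 1.36 and 3.999 on the cerebellum-poor arrays. It differed by 2.93 ± 0.42, a value that was 7.35 with a pseudocount of 1 and 1.76 with a pseudocount at the median, since the poor arrays were near 0. Dao, the D-amino-acid oxidase of hindbrain glia that degrades D-serine, had 158, 571 and 1265 on the cerebellum-rich arrays, against 43.4, 70.4 and 109.8 on the cerebellum-poor arrays, a difference of 1.96 ± 0.23. Arhgef33 had 153, 469.8 and 1216 on the cerebellum-rich arrays, against 40.1, 52.9 and 61.1 on the cerebellum-poor arrays, a difference of 2.02 ± 0.25. Crtam, an adhesion molecule first described in activated T cells, had 179.9, 495 and 1077 on the cerebellum-rich arrays, against 53.2, 83.4 and 150.5 on the cerebellum-poor arrays, a difference of 1.71 ± 0.27. In each of these 4 genes every rich array was above every poor array.

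**Figure D2:**
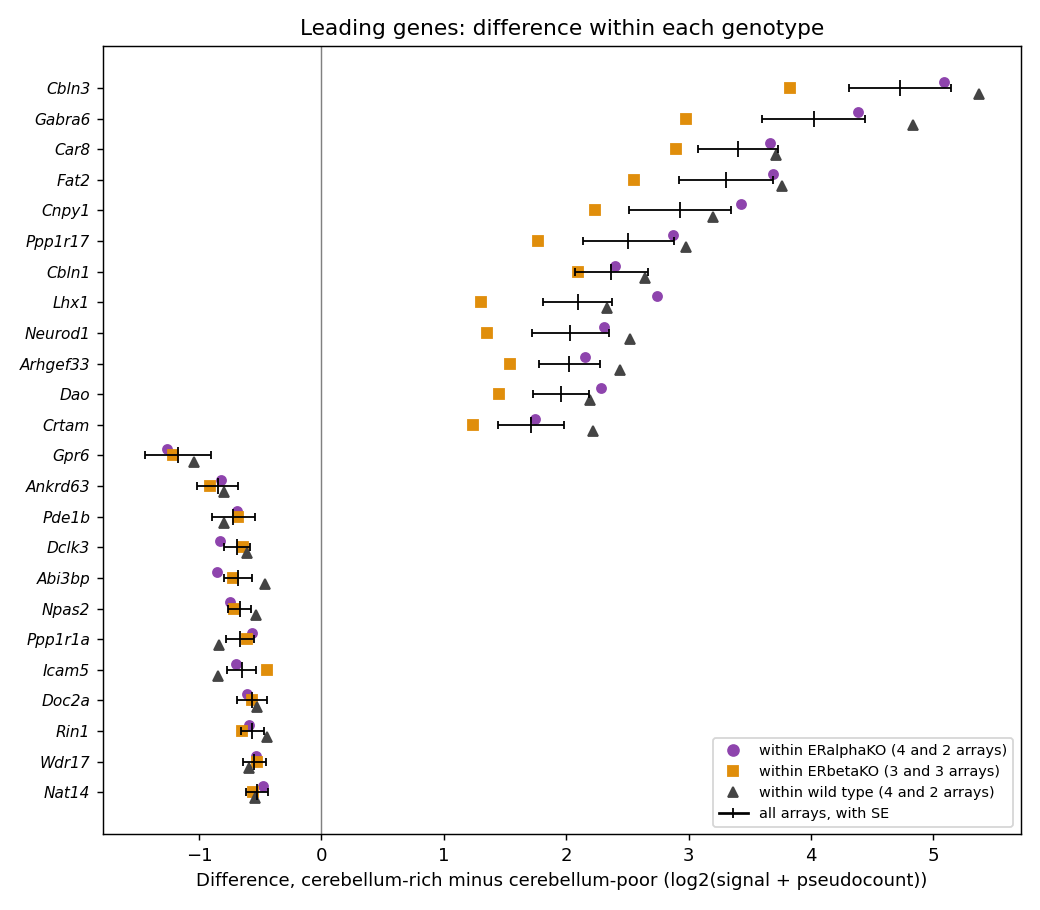
Difference, cerebellum-rich minus cerebellum-poor, in log2(signal + pseudocount) for the 12 leading higher and 12 leading lower genes, over all arrays (bar, SE) and within arrays labelled ERalphaKO (4 rich, 2 poor), ERbetaKO (3 rich, 3 poor) and wild type (4 rich, 2 poor). The genes were chosen for 1 sign in all 3 genotypes, and the higher genes have their smallest difference within ERbetaKO.

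Cbln3 differed by 5.09 within ERalphaKO, 3.83 within ERbetaKO and 5.37 within wild type, and Gabra6 by 4.38, 2.98 and 4.84 in the same order. The rich arrays labelled ERbetaKO include the 2 arrays of lowest Pcp2, and whether this bears on the smaller differences was not tested. The interaction of class and genotype named above called no gene. With only 2 or 3 poor arrays in each genotype, it could miss real differences.

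Genes of the striatum, the input nucleus of the basal ganglia, were lower in cerebellum-rich arrays. All 18 tested members had a difference below 0, 12 were called lower (4.01% over all genes tested) and 0 higher, with a median of -0.69. Gpr6, an orphan G protein-coupled receptor of indirect-pathway striatal neurons, had 90.7, 499 and 594 on the cerebellum-rich arrays, against 696, 843 and 1329 on the cerebellum-poor arrays. Every rich array lay below every poor array, and the difference was -1.17 ± 0.27. Pde1b, a calmodulin-dependent phosphodiesterase on the striatal list, had 1036, 2509.8 and 3084 on the cerebellum-rich arrays, against 3092, 3497 and 5427 on the cerebellum-poor arrays, a difference of -0.72 ± 0.17, with the 2 ranges adjacent but apart. Proenkephalin (Penk) had 1669, 4162 and 6970.4 on the cerebellum-rich arrays, against 4325, 6382 and 11118 on the cerebellum-poor arrays, overlapping, a difference of -0.83 ± 0.23. DARPP-32 (Ppp1r1b), the dopamine-regulated phosphatase inhibitor, differed by -0.79 ± 0.21, Rgs9, a regulator of dopamine receptor signalling, by -0.77 ± 0.21, the G protein subunit Gng7 by -0.76 ± 0.19 and adenylyl cyclase 5 (Adcy5) by -0.72 ± 0.17. The dopamine receptor Drd2 (-0.63) was called lower, while Drd1 (-0.86 ± 0.28), Pde10a (-0.70) and Tac1 (-0.36) were not called. The call of Penk was lost on leaving out any 1 of 8 of the 18 arrays (differences -0.93 to -0.70 over all 18), that of Ppp1r1b any 1 of 6 of the 18 arrays (differences -0.86 to -0.69 over all 18), that of Drd2 any 1 of 4 of the 18 arrays (differences -0.71 to -0.51 over all 18), among them wild type male 3 and ERalphaKO male 3, and that of Rgs9 without wild type male 3 (-0.68), ERalphaKO male 3 (-0.75) or ERbetaKO female 1 (-0.66). Over all single arrays left out, the number of striatal genes called lower ran from 6 to 15, with the median at -0.76 to -0.55.

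Cortical and hippocampal neuron genes were lower on 8 of 26 tested (4.01% over all genes tested) and higher on 0. The median was -0.27, with 23 of 26 differences below 0. Bcl11b, a zinc finger factor of deep-layer cortical and striatal neurons, had 842, 1405 and 1981 on the cerebellum-rich arrays, against 1852, 2379 and 2798 on the cerebellum-poor arrays, a difference of -0.75 ± 0.16. The LIM-only factor Lmo3 differed by -0.68 ± 0.13, and the T-box factor of glutamatergic cortical neurons Tbr1 by -0.68 ± 0.16. Rasgrf2 (-0.36), Cux2 (-0.25), Emx2 (-0.54), Arpp21 (-0.51) and Lmo4 (-0.40) were called lower too. The call was lost for Tbr1 without wild type female 3 (-0.63) or ERalphaKO male 3 (-0.61), for Emx2 on leaving out any 1 of 12 of the 18 arrays (differences -0.62 to -0.45 over all 18), for Arpp21 with 13 of the 18 arrays (differences -0.60 to -0.41 over all 18), for Lmo4 with 9 of the 18 arrays (differences -0.46 to -0.33 over all 18) and for Cux2 with 8 of the 18 arrays (differences -0.29 to -0.21 over all 18). Camk2a (0.09), a kinase of excitatory synapses, Nrgn (-0.17) and Cck (-0.21) were not called. The count of called members ranged from 3 to 11 as single arrays were left out.

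Further genes among the 12 leading lower ones are known from the forebrain. Icam5 (telencephalin), an adhesion molecule of telencephalic neurons, had 1134, 1698 and 2266 on the cerebellum-rich arrays, against 2308, 2549 and 3277 on the cerebellum-poor arrays, a difference of -0.65 ± 0.12. Npas2, a paralogue of the clock factor CLOCK, had 274, 414 and 525 on the cerebellum-rich arrays, against 573, 661 and 860.0 on the cerebellum-poor arrays, a difference of -0.67 ± 0.10. Doc2a, a calcium sensor of spontaneous release, differed by -0.57 ± 0.12, the Ras effector Rin1 by -0.56 ± 0.10, the protein phosphatase inhibitor Ppp1r1a by -0.67 ± 0.12 and the kinase Dclk3 by -0.69 ± 0.11. Ankrd63, an ankyrin repeat protein, had 419.6, 768 and 1163 on the cerebellum-rich arrays, against 1271, 1483 and 1647 on the cerebellum-poor arrays, a difference of -0.85 ± 0.17. Abi3bp (-0.68), Wdr17 (-0.55) and Nat14 (-0.53) completed the set. In every gene of this set the 11 rich arrays lay below the 7 poor arrays, as the choice of the set required.

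Olfactory bulb genes were called lower on 4 of 9 tested (4.01% over all genes tested) and higher on 0, with a median of -0.57. Dlx1, a homeodomain factor of forebrain inhibitory neurons, had 85.5, 139.9 and 312 on the cerebellum-rich arrays, against 252, 391 and 1266 on the cerebellum-poor arrays, a difference of -1.20 ± 0.22. Cdhr1, a cadherin of mitral and tufted cells, had 179, 248 and 427 on the cerebellum-rich arrays, against 274, 509 and 2503 on the cerebellum-poor arrays, a difference of -1.06 ± 0.24. ERalphaKO male 3 carried the highest value of both genes. Without the 2 poor arrays of low Ttr, which include it, Dlx1 differed by -0.86 and Cdhr1 by -0.73, both still called, and the list median was -0.32. The related factors Dlx5 (-0.73) and Dlx2 (-0.57) were called lower with all arrays, and differed by -0.56 and -0.32 without a call when both arrays were left out. Without the 6 arrays of high Gh, Dlx1 differed by -1.06 and Cdhr1 by -1.13, 0 of the 9 genes were called by limma and the list median was -0.50. Doc2g (-0.88 ± 0.28), Omp (-0.23 ± 0.19) and tyrosine hydroxylase (Th, -0.23 ± 0.23) were not called.

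**Figure D3:**
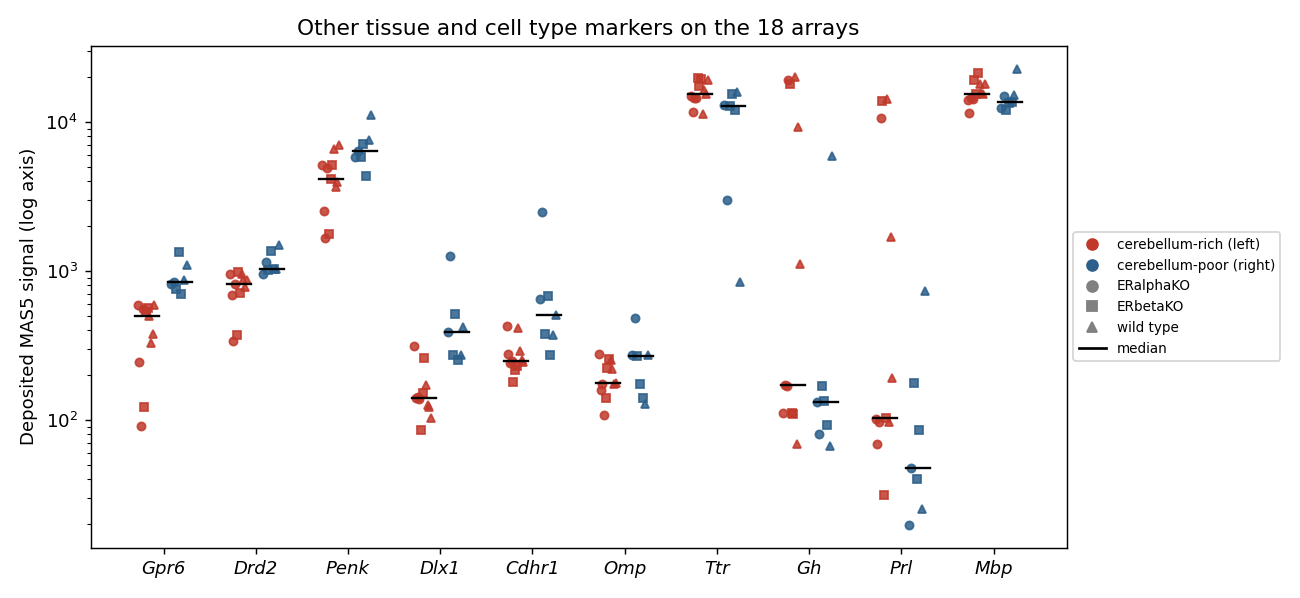
Deposited signal (log axis) of 10 genes of other tissues and cell types on the 18 arrays, cerebellum-rich in red on the left and cerebellum-poor in blue on the right, with a bar at the median. Gpr6 is lower on every rich array, ERalphaKO male 3 stands high for Dlx1 and Cdhr1, and Ttr is low on 2 poor arrays. Gh is above 1000 on 5 rich arrays and 1 poor array, and Prl reaches 14203 on rich arrays against 729 on poor arrays.

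GABA-A receptors, the chloride channels of fast inhibition, are pentamers whose alpha subunit differs between regions. Of 11 subunits tested, Gabra6 alone was called higher (3.58% over all genes tested), 2 were lower (4.01%) and the median was -0.25. Gabra4, the alpha4 subunit of forebrain extrasynaptic receptors, had 1698, 1898 and 2829 on the cerebellum-rich arrays, against 2546, 2731 and 3140.4 on the cerebellum-poor arrays, a difference of -0.41 ± 0.09. Gabra2 differed by -0.36 ± 0.07. The other alpha subunits Gabra3 (-0.34 ± 0.11) and Gabra5 (-0.34 ± 0.18) were not called, nor were Gabrb2 (0.01 ± 0.06) and Gabrd (0.08 ± 0.15), the delta subunit that pairs with both alpha4 and alpha6.

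Glutamate receptor subunits split, with 3 of 21 called higher (3.58% over all genes tested), 6 lower (4.01%) and a median of -0.13. Grm4, the presynaptic metabotropic receptor of parallel fibres, had 1162, 2136 and 4633 on the cerebellum-rich arrays, against 903, 1079.6 and 1251 on the cerebellum-poor arrays, a difference of 0.89 ± 0.21. Grin2c, the NMDA receptor subunit of mature granule cells, had 485, 1209 and 2496 on the cerebellum-rich arrays, against 417, 614 and 667 on the cerebellum-poor arrays, a difference of 0.83 ± 0.21; its call was lost without wild type female 3 (0.81) and without ERalphaKO male 3 (0.82). Both genes overlapped between classes, through ERbetaKO male 3 for Grm4 and through ERbetaKO male 2 and male 3 for Grin2c, the rich arrays of lowest Pcp2. The kainate receptor subunits Grik5 (-0.56 ± 0.11) and Grik3 (-0.33 ± 0.07), the metabotropic receptors Grm5 (-0.41 ± 0.10) and Grm7 (-0.28) and the AMPA subunits Gria2 (-0.31) and Gria3 (-0.29) were called lower. Leaving out wild type female 3 or ERbetaKO female 1 ended the calls of Grm7 (-0.24, -0.25), Gria2 (-0.27, -0.29) and Gria3 (-0.27, -0.26), and leaving out ERalphaKO male 3 ended those of Gria2 (-0.27) and Gria3 (-0.29). Gria1 (-0.02 ± 0.07) and Grin2a (-0.01 ± 0.14) were not called.

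**Figure D4:**
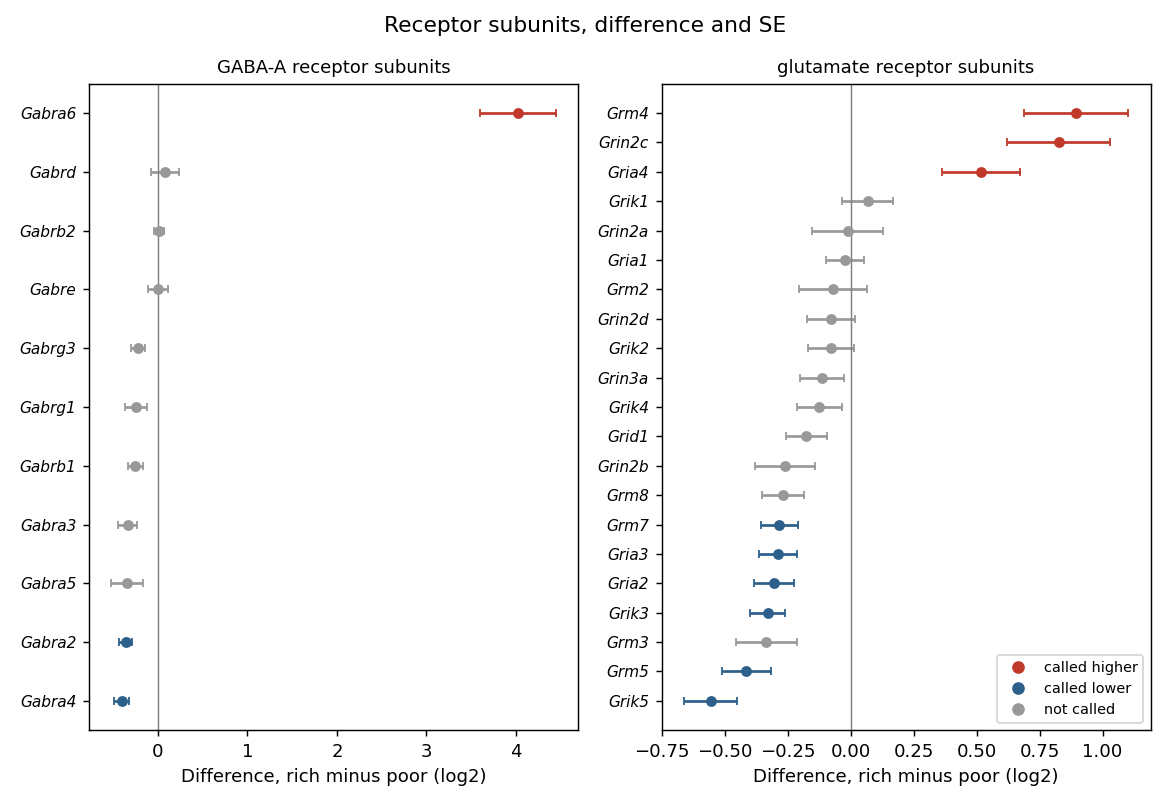
Difference, cerebellum-rich minus cerebellum-poor, with its SE in log2 units for 11 GABA-A receptor subunits on the left and 21 glutamate receptor subunits on the right, red called higher, blue called lower and grey not called. Gabra6 stands at 4.02 and the other GABA-A subunits lie between -0.41 and 0.08, while the glutamate receptor subunits run from -0.56 to 0.89.

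Neuronal calcium-binding proteins were also divided. Of 18 tested, 4 were called higher (3.58% over all genes tested), 2 lower (4.01%) and the median was -0.03. Besides Pvalb and Calb1, the higher ones were Cabp7 (0.91 ± 0.19), a Golgi-associated calcium-binding protein, and Hpcal1 (0.66 ± 0.14), a visinin-like sensor of Purkinje cells. Kcnip2, an auxiliary subunit of A-type potassium channels, had 974, 1552 and 2606 on the cerebellum-rich arrays, against 2542, 2875 and 3370.5 on the cerebellum-poor arrays, a difference of -0.86 ± 0.16. Hpcal4 (-0.39 ± 0.10) was called lower with all arrays, and not without wild type female 3 (-0.35) or ERalphaKO male 3 (-0.36). Hippocalcin (Hpca, -0.29 ± 0.11) was not called.

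Glial genes differed less. Among 14 oligodendrocyte genes, 4 were called higher (3.58% over all genes tested) and 0 lower (4.01%). All 14 differences were above 0, with a median of 0.29. The myelin lipid enzymes Fa2h (0.37 ± 0.09) and Ugt8a (0.37 ± 0.10), the gap junction protein Gjb1 (0.52 ± 0.14) and myelin-associated glycoprotein (Mag, 0.36 ± 0.10) were the 4. Leaving out single arrays gave 0 to 7 called, and the call was lost for Mag with 9 of the 18 arrays (differences 0.28 to 0.43 over all 18), for Gjb1 with 5 of the 18 arrays (differences 0.41 to 0.60 over all 18), for Ugt8a with 4 of the 18 arrays (differences 0.30 to 0.42 over all 18) and for Fa2h without ERalphaKO male 3 (0.28). Myelin basic protein (Mbp) had 11524, 15502 and 21346 on the cerebellum-rich arrays, against 12117, 13697 and 22756 on the cerebellum-poor arrays, a difference of 0.12 ± 0.11, not called. Of 14 astrocyte genes, 4 were higher (3.58% over all genes) and 0 lower (median 0.19, and 2 to 5 called on leaving out single arrays). These were the calcium-binding protein S100b (0.49 ± 0.11), the water channel Aqp4 (0.48 ± 0.11), the amino acid transporter Slc7a10 (0.25 ± 0.06) and the intermediate filament Gfap (0.31 ± 0.09). The call of Gfap was lost on leaving out any 1 of 10 of the 18 arrays (differences 0.25 to 0.37 over all 18), and that of Slc7a10 without wild type female 3 (0.23) or ERalphaKO male 3 (0.23). The glutamate transporter Slc1a2 differed by -0.02 ± 0.09 and was not called.

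All 13 microglial genes tested had a difference below 0, with a median of -0.23, yet 0 were called by limma. At an unadjusted limma p under 0.05 there were 9 of the 13, against 2992 of all 13055 genes tested. The number called lower was 7 without the 3 rich arrays of lowest Pcp2, 2 with median scaling and 0 to 3 on leaving out single arrays. Csf1r, the receptor for colony stimulating factor, differed by -0.24 ± 0.07, and the complement subunit C1qa by -0.23 ± 0.09. Endothelial and mural genes centred on 0.02, and housekeeping genes on 0.04, with 0 of 15 and 0 of 7 called by limma and 0 in either list at an unadjusted p under 0.05. Actb differed by 0.10 ± 0.14. Meningeal genes had 1 of 10 called, against 3.58% called higher over all genes tested, and a median of 0.08. It was insulin-like growth factor 2 (Igf2, 0.37 ± 0.11), which lost the call on leaving out any 1 of 12 of the 18 arrays (differences 0.28 to 0.43 over all 18). The only blood gene tested, Alas2, differed by 0.48 ± 0.31 and was not called.

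**Figure D5:**
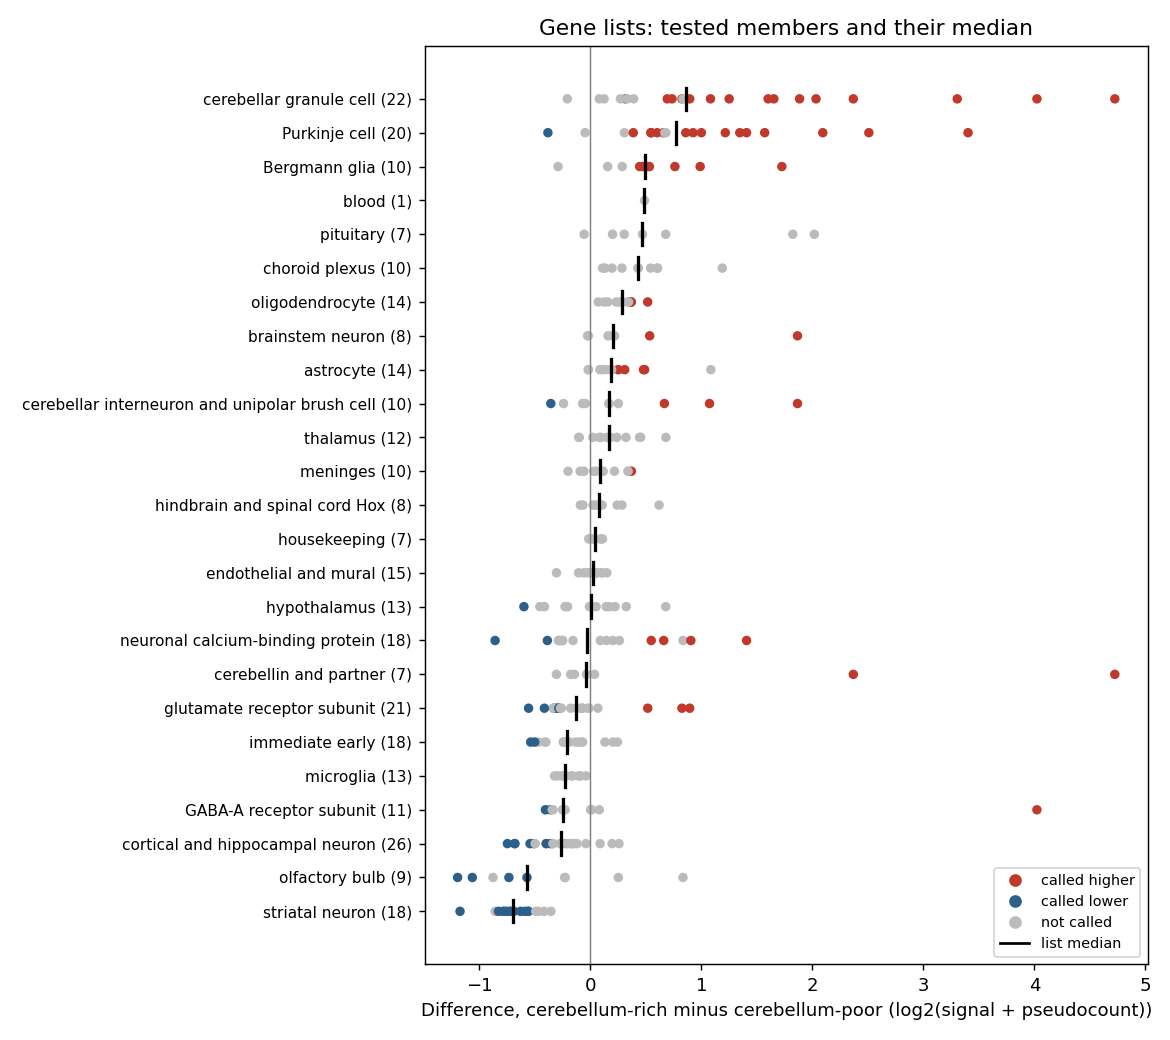
Difference, cerebellum-rich minus cerebellum-poor, in log2(signal + pseudocount) for the tested members of 25 gene lists (number tested in brackets), red called higher, blue called lower and grey not called, with a bar at each list's median. Granule, Purkinje and Bergmann lists lie furthest to the right among lists with calls, and the striatal and olfactory bulb lists furthest to the left.

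Hindbrain outside the cerebellum was tested through Hox genes and brainstem transmitter genes. Of the 8 Hox genes tested 0 were called by limma, with a median of 0.08. At an unadjusted limma p under 0.05 there was 1 of the 8, against 2992 of all 13055 genes tested. Hoxb2 differed by 0.62 ± 0.21, and Hoxa5 had 519, 867 and 1028 on the cerebellum-rich arrays, against 203, 785 and 1413 on the cerebellum-poor arrays, a difference of 0.24 ± 0.20. Of 8 brainstem neuron genes, Slc6a5 and the neurofilament Nefh (0.53 ± 0.14) were called higher, against 3.58% over all genes tested. The list median was 0.21. The noradrenergic enzyme Dbh (-0.02 ± 0.13) and choline acetyltransferase (Chat, 0.16 ± 0.09) were not called. The call of Nefh was lost without wild type female 3 (0.55), ERalphaKO female 2 (0.45), ERalphaKO male 3 (0.50) or ERbetaKO female 3 (0.49). Of 12 thalamic genes 0 were called by limma (2 at an unadjusted p under 0.05, median 0.17); the vesicular glutamate transporter Slc17a6 differed by 0.68 ± 0.25. Of 13 hypothalamic genes, neuropeptide Y (Npy, -0.60 ± 0.14), which cortical interneurons also make, was called lower and the median was 0.01. Over all genes tested 4.01% were called lower. Oxytocin (Oxt) differed by 0.14 ± 0.23 and was not called.

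Pituitary and choroid plexus lists had medians above 0, but 0 of 7 pituitary and 0 of 10 choroid plexus genes were called by limma. At an unadjusted limma p under 0.05 there were 1 and 4, against 2992 of all 13055 genes tested. Gh had 68.6, 171 and 19903 on the cerebellum-rich arrays, against 67.0, 132 and 5917 on the cerebellum-poor arrays, a difference of 1.82 ± 1.17, and prolactin (Prl) had 31.2, 102 and 14203 on the cerebellum-rich arrays, against 19.7, 47.8 and 729 on the cerebellum-poor arrays, a difference of 2.02 ± 1.07. Gh was above 1000 on 5 rich arrays and 1 poor array and at or below 171 on all others. For Prl the highest poor array, at 729, lay far below the highest rich array, at 14203. Without the 6 arrays of high Gh the difference of Prl was 0.29, also not called. The 7 pituitary genes had a median of 0.47, and 0.17 without the 6 arrays of high Gh. Ttr had 11309.9, 15469.8 and 19811 on the cerebellum-rich arrays, against 837, 12822 and 15924 on the cerebellum-poor arrays, a difference of 1.19 ± 0.40. All 10 choroid plexus genes had a difference above 0, with a median of 0.43, which was 0.14 without the 2 arrays of low Ttr.

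Immediate early genes, which neuronal activity and handling switch on within minutes, had 2 of 18 called lower, 0 higher and a median of -0.21. Over all genes tested 4.01% were called lower. Homer1 (-0.54 ± 0.13) and Egr3 (-0.50 ± 0.12) were the 2, and neither was called without wild type female 3 or without ERalphaKO male 3 (Homer1 -0.48 in both cases, Egr3 -0.46 and -0.44). Fos had 466, 2152 and 3226 on the cerebellum-rich arrays, against 713, 2081 and 3216 on the cerebellum-poor arrays, a difference of 0.13 ± 0.13, not called. Esr1 differed by 0.03 ± 0.11 and was not called, and Esr2 lay below the filter.

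Counts of called members and list medians both moved with the arrays used, while the medians given here kept their sign. With all arrays the medians were 0.77 for the Purkinje, 0.86 for the granule and 0.49 for the Bergmann list. They were -0.69 for the striatal and -0.27 for the cortical list. Without the 2 poor arrays of low Ttr, the Purkinje list had 7 called higher (median 0.79), the granule list 9 (median 0.95), the Bergmann list 4 (median 0.51), the striatal list 0 lower (median -0.62) and the cortical list 3 lower (median -0.33). On the same arrays the oligodendrocyte list had 1 called higher (median 0.31), the astrocyte list 1 (median 0.22) and the glutamate receptor list 0 higher and 1 lower (median -0.18), and the pituitary median was 0.53. Without the 6 arrays of high Gh, the counts were 6 Purkinje (median 0.68), 7 granule (median 0.66), 2 Bergmann (median 0.41), 0 striatal (median -0.56) and 0 cortical genes (median -0.28). Without the 3 rich arrays of lowest Pcp2, they were 17 Purkinje (median 1.10), 19 granule (median 1.20), 7 Bergmann (median 0.66), 16 striatal (median -0.87) and 13 cortical genes (median -0.40). Among the 12 leading higher genes all kept their call under each of these sets left out, while of the 12 leading lower genes 10 did without the arrays of low Ttr (all but Gpr6, at -1.13, and Pde1b, at -0.64) and 6 without the arrays of high Gh. All 78 named called genes kept their direction under each alternative run for them (42, or 41 for 12 of the genes). The alternatives reused the same arrays with classes cut from Pcp2, so this is no independent evidence. Of all 991 called genes, 989 had 1 sign in all 3 genotypes, against 40.1% of all genes tested. The calls were made on the arrays of these 3 genotypes together, so this sharing of sign follows largely from the choice of genes. It is no independent evidence either.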

How the data were processed

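Gene expression was measured in 18 whole-brain samples, 1 Affymetrix mouse array each. The deposited intensities are linear values per probe set, made by the authors with MAS5 per the submitters' processing notes; its version is not given in the sources used here. The 2% trimmed mean of every deposited column was 500. The number of arrays limits the precision. Of 45101 probe sets, 64 controls were left out. The platform annotation gave 1 symbol for 34945, several for 932 and none for 9160, and symbols were updated through RefSeq (GRCm38.p6) by entrez identifier for 34741 and by symbol for 202. For each of 18161 genes the probe set of highest mean was kept.

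Values were analysed as log2(signal + 63.6), where 63.6 is the 25th percentile over non-control probe sets. Genes with a mean over all 18 arrays below the 40th percentile (7.58) were dropped. The 13055 remaining genes, without Pcp2, were fitted with limma 3.58.1 in R 4.3.3 on class and genotype with an intensity trend, with Benjamini-Hochberg adjusted p under 0.05 as the call. Class was compared with the genotype and sex labels by Fisher's exact test. The members, the gene lists and the rules were chosen with earlier results of these data known. Named genes are Pcp2, the 12 largest higher and 12 largest lower called genes with non-overlapping classes and 1 sign in all 3 genotypes, up to 6 genes of each list, and a fixed set of markers; further list members are named to complete a list and were chosen after their values were seen. Of the 78 named called genes, 36 had another named probe set, and 0 had one called the opposite way. The fit was tested on simulated data. Alternatives were other pseudocounts, filters, scalings, covariates, thresholds and subsets of arrays, and each array left out in turn. Tables and figures used Python 3.11.15 and matplotlib 3.10.9.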

Additional observations from a re-analysis of the deposited data

Results flagged for a closer look

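Among the 7 cerebellum-poor arrays, the highest or lowest array stood apart from the others by Dixon's criterion at the 95% level (its gap to the nearest array against the whole range) for 9 of 128 genes examined, and chance gives about 1 in 20. Wild type male 3 was the high array for Gh (5917), Pomc (1266), the hedgehog receptor Ptch1 (1819.9) and the myelin genes Mbp (22756) and Cnp (9783). ERalphaKO male 3 was high for Dlx1 (1266) and the mitral cell cadherin Cdhr1 (2503) and low for the choroid plexus chloride channel Clic6 (539). ERbetaKO male 1 was low for Nat14 (1145). Wild type male 3 and ERalphaKO male 3 are the 2 poor arrays of low Ttr, and values without them are given above for several of the lists.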

How the results depend on the processing

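The number of called genes (468 higher and 523 lower in cerebellum-rich arrays) moved with the arrays and covariates used. It was 292 and 574 with median scaling, so that 33.7% of calls were higher against 47.2%; 201 and 210 with Gh as a covariate; 807 and 888 with a Pcp2 threshold of 2000; 247 and 176 in female arrays alone; 95 and 11 within ERalphaKO. Called genes numbered 1 and 0 within ERbetaKO, 0 and 0 within wild type and 0 and 0 in male arrays alone. At an unadjusted limma p under 0.05 there were 1501, 1482 and 1653 of the 13055 genes in these 3 fits. With all probe sets of named genes, 719 were higher and 689 lower. Leaving out 1 array gave 231 to 657 higher and 237 to 758 lower; the count moved by over 1.5 times without wild type female 3 (231 and 237), ERalphaKO male 3 (242 and 257) and ERbetaKO female 1 (268 and 285). Alternatives chosen after seeing the data gave 174 and 206 without the 2 arrays of low Ttr, 790 and 912 without the 3 rich arrays of lowest Pcp2, and 47 and 26 without the 6 arrays of high Gh. Smaller subsets have fewer arrays; other causes were not tested. The labels give the groups the same replicate numbers. Same-numbered arrays did not consistently deviate together from their group means (45 pairs, r from -0.484 to 0.485, median 0.018). Of 18 arrays, 5 correlated best with their own number, and the numbers were not treated as pairs. These deviations still held the class difference. Class was uneven over the numbers. The poor arrays with number 3 were wild type female and male, ERalphaKO male and ERbetaKO female, and ERbetaKO male was the only one with number 1. An effect of number thus cannot be fully told apart from class. With the replicate block 106 genes were higher and 89 lower. Fisher's exact p of class against genotype was 0.280 with a Pcp2 threshold of 2000 and 0.691 to 1 on leaving out 1 array. The table holds no detection calls, so signal over background is known only from low values, and genes near the pseudocount have understated differences.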
